A study of Homo sapiens with 6 samples.

Results

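The interferon-stimulated genes described here are 38 genes of antiviral defence, chosen by name from a table of 24846 genes, and every name in the list had 1 row. They were measured by poly-A RNA-seq in A549, a cell line of human lung adenocarcinoma that is wild type in the labels. The ACC group (3 cultures) was grown for 8 passages in calcium-depleted DMEM/F12 that received amorphous calcium carbonate (ACC), a non-crystalline calcium salt, at 2 mM elemental calcium. The control group (3 cultures) was grown for 8 passages in complete DMEM/F12, and both media held fetal bovine serum and antibiotics. The medium, the form of calcium and its amount changed together with the carbonate and the tripolyphosphate stabilizer of the ACC suspension. The authors also report that ACC raised the pH of acidified medium, and the pH of these cultures is not given. The parts of all these cannot be told apart. The labels name no interferon or virus for either group. The cultures were kept in triplicate and are all of 1 line, so the p-values measure only the spread among these libraries. In such bulk samples fewer cells making an RNA and less of it per cell cannot be told apart.

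Interferons are secreted proteins that warn cells of infection. Type I and type III interferons bind receptors that activate the kinases JAK1 and TYK2, which phosphorylate STAT2. A complex that holds STAT2 and IRF9 then enters the nucleus and binds a DNA element called the interferon-stimulated response element (ISRE). Interferon gamma instead acts through JAK1 and JAK2, on an element called GAS. The genes switched on include sensors of foreign RNA, enzymes that cleave viral RNA, and membrane proteins that hold viruses at the cell surface. Epithelial cells of the lung also keep a low level of many of these genes without infection.

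The interferon-stimulated genes (ISGs) moved in both directions with ACC. Of the 38 genes, 35 reached a summed normalized count (reads per gene divided by a size factor of the library) of 10 across 6 libraries and were tested, and 28 had at least 30 reads in 1 library. With limma, at adjusted p values up to 0.05, 7 were higher with ACC (IFITM1, ISG20, OAS1, IFI35, IFITM2, IFITM3 and STAT2), 4 were lower (GBP1, ISG15, SAMD9 and OAS3), and 24 did not pass. The 7 higher genes are 20% of those tested, beside 21.3% of all 19318 genes tested, and the 4 lower genes are 11.4%, beside 21.9%. In either direction 31.4% of the tested ISGs passed, beside 43.3% of all genes. Among genes with at least 30 reads in 1 library the shares were 25% higher and 10.7% lower for ISGs, beside 27.2% and 28.3% for all such genes, and 35.7% in either direction, beside 55.5%. In 10 tested ISGs (28.6%) every ACC library was above every control library, beside 25.5% of all genes, and in 5 (14.3%) every ACC library was below, beside 25.9%. The median log2 fold change (ACC over control) was 0.10 for the ISGs and 9.24e-05 for all genes tested, and the median size of change regardless of sign was 0.26 in both. With at least 30 reads in 1 library that median size was 0.28 for the ISGs, beside 0.21 for all such genes. With the further thresholds of a 2-fold change and 30 reads in 1 library, 3 ISGs were higher (IFITM1, ISG20 and OAS1), beside 2.77% of all genes, and 0 were lower, beside 2.24%. Together these 3 are 8.57% of the ISGs tested, beside 5.01% of all genes. At an unadjusted p under 0.05 with the same fold and read thresholds 0 were lower too, and edgeR and DESeq2 on the recovered reads also gave 0.

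The libraries held 21771645 to 24805486 reads in genes. Reads in mitochondrial genes took 4.39% to 5.70% with ACC and 4.04% to 4.29% in the controls. All 5 epithelial markers were present in every library, with up to 91956 reads for KRT8, and they moved both ways with limma: CDH1, EPCAM and KRT19 were higher with ACC (log2 fold changes 1.10, 0.62 and 0.64) and KRT8 and KRT18 lower (-0.31 and -0.42). Of 3 alveolar type II markers in the table, NKX2-1 and SFTPA1 had at most 1 read, while ABCA3 had 1899 ± 18.9 normalized counts with ACC against 1806 ± 50.1 in control (mean ± SD, n = 3 each). Of 4 leukocyte marker genes in the table, CD3E had 0 reads in all 6 libraries and PTPRC at most 1, and the 4 together summed to 79.0 to 83.9 normalized counts with ACC and 36.1 to 49.1 in the controls, mostly from ITGAM. Of 5 fibroblast marker genes, DCN and COL1A2 had at most 1 read, and the 5 summed to 438.8 to 523 with ACC and 2002 to 2193 in the controls, mostly from COL1A1. Of 3 endothelial marker genes, VWF had at most 1 read, and the 3 summed to 8.66 to 14.3 with ACC and 1.92 to 4.45 in the controls. IL3RA, the one plasmacytoid dendritic cell marker in the table, had 20.5 to 37.6 with ACC and 10.4 to 23.1 in the controls. The part of these markers in the results was not tested.

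**Figure D1:**
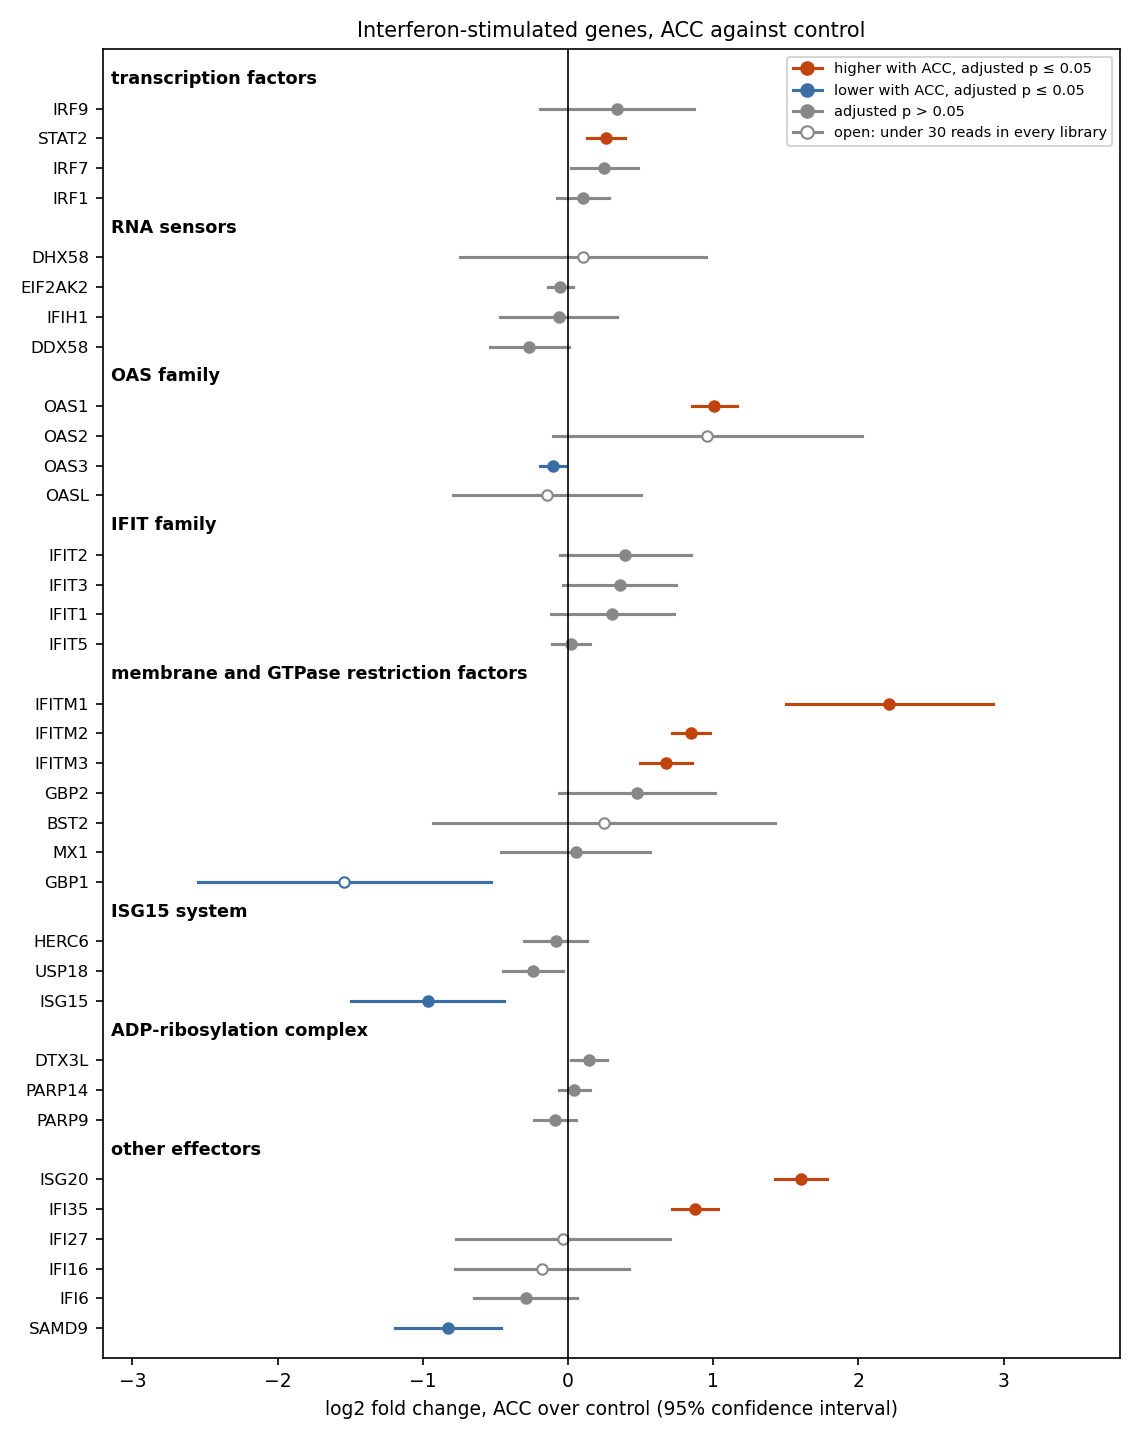
Log2 fold change (ACC over control, x axis) with its 95% confidence interval for the 35 tested interferon-stimulated genes, grouped by role. Red marks the 7 genes higher with ACC, blue the 4 lower, grey the 24 that missed an adjusted p of 0.05, and open points genes under 30 reads in every library. IFITM1 lies farthest right at 2.21 and GBP1 farthest left at -1.54.

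An ISRE was found in promoters of genes that were higher, of genes that were lower and of genes that did not pass. RefSeq gave a promoter window, from 250 bases before to 50 after the gene start, for 30 of the 38 genes (GRCh38.p14). The ISRE core was searched on both strands as TTTC, any 2 bases and TTTC again, which reads as GAAA, any 2 bases and GAAA on the other strand. It was found in 21 of the 30 windows (70%), beside 3.64% of 27167 promoters of the same length. A longer form, the core with AG directly before it, which overlaps the core by construction, was in 13 of the 30 (43.3%), beside 0.272%. The GAS motif TTCNNNGAA, which reads the same on both strands, was in 8 of the 30 (26.7%), beside 7.88%. Of the genes with a window, the core was in 3 of 6 that were higher with ACC, in 4 of 4 that were lower, in 11 of 17 that did not pass and in 3 of 3 that were too low to test. IFITM1, IFITM3 and ISG20 held it among the higher genes, and IFI35, OAS1 and STAT2 did not hold it in the window searched. Other starts of a gene and other spacings of the letters were not searched, so genes without a match are not shown to lack an ISRE. These counts describe letters and say nothing of binding, which was not measured.

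Stretches of these windows that hold a core are given for 3 higher genes, 4 lower genes and 2 that did not pass. Every core was found with the same pattern, so apart from its 2 free bases the likeness between genes was fixed by the search. The stretches are written 5′ to 3′ in the direction of the gene, with each ISRE core in capitals.
IFITM1 (higher, chr11:313985-314024, plus strand): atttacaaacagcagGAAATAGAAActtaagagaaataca
IFITM3 (higher, chr11:320871-320927, minus strand): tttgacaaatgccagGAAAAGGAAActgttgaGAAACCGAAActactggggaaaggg
ISG20 (higher, chr15:88638932-88638971, plus strand): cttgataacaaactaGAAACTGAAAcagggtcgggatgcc
ISG15 (lower, chr1:1013369-1013414, plus strand): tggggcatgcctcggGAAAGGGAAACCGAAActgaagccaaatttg
SAMD9 (lower, chr7:93118091-93118130, minus strand): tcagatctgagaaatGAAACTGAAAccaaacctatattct
OAS3 (lower, chr12:112938316-112938355, plus strand): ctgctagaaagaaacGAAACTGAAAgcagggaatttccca
GBP1 (lower, chr1:89065311-89065350, minus strand): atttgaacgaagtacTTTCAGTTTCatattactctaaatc
IFIT1 (not passing, chr10:89392492-89392544, plus strand): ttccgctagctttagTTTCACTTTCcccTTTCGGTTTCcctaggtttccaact
IFIT3 (not passing, chr10:89327826-89327899, plus strand): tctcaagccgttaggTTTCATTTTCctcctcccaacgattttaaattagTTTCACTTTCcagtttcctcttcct
The ISG20, SAMD9 and OAS3 stretches carry the same 10 letters, GAAACTGAAA, and GBP1 has their reverse form. The stretches of ISG15, IFITM3, IFIT1 and IFIT3 hold a pair of cores each, overlapping in ISG15, and the windows of IFITM1 and OAS3 hold 1 more core each outside the stretch shown.

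Among the factors that carry the interferon signal, STAT2 was the one member that passed. STAT2, a subunit of the ISRE-binding complex, lies on chromosome 12 of GRCh38 from 56341597 to 56360203. It had 627.9, 661 and 662 normalized counts with ACC, against 585, 546 and 499.5 in control. All ACC libraries were above all control libraries, by a modest margin (log2 fold change 0.26 ± 0.06 SE, limma adjusted p = 0.00234). IRF7, the master factor of type I interferon genes, had 143, 125 and 148 with ACC, against 124, 115 and 111 in control. The groups of IRF7 did not overlap, but it missed the threshold (log2 fold change 0.25, 95% interval 0.02 to 0.48, limma adjusted p = 0.0784), which it passed without ACC replicate 2 (0.32, adjusted p = 0.0411). IRF1, a factor induced chiefly by interferon gamma, had 358.5 ± 29.0 with ACC against 333.9 ± 37.5 in control (mean ± SD, n = 3 each), and IRF9, the DNA-binding partner of STAT2, 29.0 ± 6.43 with ACC against 22.9 ± 5.83 in control. Neither passed, and each had its groups overlapping. Exons of IRF1 and IRF9 overlap those of other genes in the annotation, so some of their reads may have been left out or given to those genes.

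None of the 4 sensors of viral RNA passed with limma over all 6 libraries, and 0 had an unadjusted p under 0.05 or passed with edgeR or DESeq2. EIF2AK2, the kinase PKR that halts protein synthesis on double-stranded RNA, was among the most abundant members. It had 2906, 2709 and 2891 normalized counts with ACC, against 3048, 2886 and 2898 in control. The groups overlapped, and the 95% interval of its log2 fold change was narrow, from -0.14 to 0.03. DDX58, the sensor RIG-I, had 88.5, 117.5 and 100.2 with ACC, against 107, 125 and 136 in control (log2 fold change -0.27, 95% interval -0.54 to 0.01, limma adjusted p = 0.114). DDX58 passed as lower without ACC replicate 2 (-0.37, limma adjusted p = 0.0471) or control replicate 1 (-0.36, limma adjusted p = 0.0447), and was at -0.17 without ACC replicate 1. IFIH1, the sensor MDA5 for long double-stranded RNA, had 57.5 ± 14.9 with ACC against 59.0 ± 8.00 in control (mean ± SD, n = 3 each). DHX58, the related helicase LGP2, had at most 14 reads in any library. Exons of EIF2AK2 overlap those of GPATCH11, so some of its reads may have been left out or given to that gene.

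The OAS enzymes, which make the second messenger that activates RNase L against viral RNA, did not move together within a single gene cluster. OAS1, OAS3 and OAS2 lie side by side on chromosome 12 of GRCh38 between 112905856 and 113011723. OAS1 had 1425, 1238 and 1448 normalized counts with ACC, against 719.9, 731 and 596 in control. Every ACC library was far above every control library (log2 fold change 1.01 ± 0.07 SE, limma adjusted p = 2.32e-09). Its fold lies at the 2-fold mark: without ACC replicate 1, ACC replicate 3 or control replicate 3 the log2 fold change was 0.98, 0.97 and 0.91, so that OAS1 then missed that mark but not the adjusted p. OAS3, the neighbouring and larger enzyme, had 2162, 2008 and 2018 with ACC, against 2200, 2190 and 2266 in control. The groups of OAS3 did not overlap, but the gap was small (log2 fold change -0.11 ± 0.04 SE, limma adjusted p = 0.0489). The call on OAS3 was lost in 12 of 16 alternatives, among them edgeR (adjusted p = 0.0601), DESeq2 (adjusted p = 0.118) and 5 of the 6 fits that left out 1 library. OAS2 had at most 4 reads in any library, and though its ACC libraries were all above its controls it did not pass (limma adjusted p = 0.142). OASL, an OAS-like protein encoded on the same chromosome, had 15.4 ± 3.71 with ACC against 17.5 ± 6.54 in control (mean ± SD, n = 3 each).

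None of the IFIT genes passed with limma, and 0 had an unadjusted p under 0.05 or passed with edgeR or DESeq2. IFIT proteins bind viral RNA that lacks the cap methylation of host messages, and their 4 genes lie between 89283694 and 89421605 on chromosome 10 of GRCh38. IFIT1 had 58.7, 49.1 and 47.1 normalized counts with ACC, against 29.9, 48.9 and 48.4 in control. IFIT3 had 58.7, 42.4 and 48.1 with ACC, against 35.7, 43.6 and 36.1 in control. IFIT2 had 27.9, 34.7 and 36.8 with ACC, against 23.1, 23.1 and 28.5 in control. The groups overlapped for all of them, with log2 fold changes of 0.31, 0.36 and 0.40 for IFIT1, IFIT3 and IFIT2 and adjusted p from 0.135 to 0.247 from limma. The log2 fold change was 0.08 for IFIT1 without control replicate 1, its one low control, and 0.23 for IFIT3 without ACC replicate 1. IFIT5, the most abundant of the family, had 425.7 ± 12.5 with ACC against 419.6 ± 3.02 in control (mean ± SD, n = 3 each), with a 95% interval of the log2 fold change from -0.11 to 0.15.

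Genes of the IFITM family, small membrane proteins that block fusion of viruses with the cell, were all higher with ACC. IFITM2, IFITM1 and IFITM3 lie within 25821 bases of chromosome 11 of GRCh38, from 303655 to 329475. IFITM2 had 2285, 2166 and 2218 normalized counts with ACC, against 1272, 1369 and 1088 in control (log2 fold change 0.84 ± 0.06 SE, limma adjusted p = 3.06e-09). IFITM3 had 687, 593 and 684 with ACC, against 416, 466 and 354 in control (log2 fold change 0.67 ± 0.08 SE, limma adjusted p = 3.34e-06). IFITM1 had 54.0, 65.5 and 69.6 with ACC, against 14.5, 24.0 and 5.70 in control (log2 fold change 2.21 ± 0.34 SE, limma adjusted p = 3.14e-05). In each of them all ACC libraries were above all control libraries, and control replicate 2 was the highest and control replicate 3 the lowest of the controls. IFITM1 rested on few control reads, 48 over the 3 libraries, and its log2 fold change was 1.70 without control replicate 3 and 2.65 without control replicate 2. The IFITM genes are near-identical in parts and overlap other annotated genes, so how their reads were assigned or left out is uncertain.

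Other factors that block viruses at membranes or in the cytoplasm were low and mostly did not pass. BST2, or tetherin, which ties budding viruses to the cell, had at most 6 reads in any library. MX1, a GTPase that traps viral capsids, had 19.6, 24.1 and 31.7 normalized counts with ACC, against 20.2, 26.7 and 24.7 in control (log2 fold change 0.05, 95% interval -0.46 to 0.57). The guanylate-binding proteins GBP1 and GBP2, GTPases induced chiefly by interferon gamma, had unlike values. GBP1 had 1.86, 2.89 and 1.02 with ACC, against 8.67, 4.45 and 9.50 in control. All ACC libraries were below all control libraries (log2 fold change -1.54 ± 0.48 SE, limma adjusted p = 0.0141), from a total of 6 reads with ACC and 24 in control. The call on GBP1 was lost with DESeq2 (adjusted p = 0.0725) and without ACC replicate 3 (0.0522), control replicate 1 (0.0595) or control replicate 3 (0.0722). GBP2 had 34.5, 20.2 and 25.6 with ACC, against 16.4, 17.8 and 21.8 in control (limma adjusted p = 0.151).

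**Figure D2:**
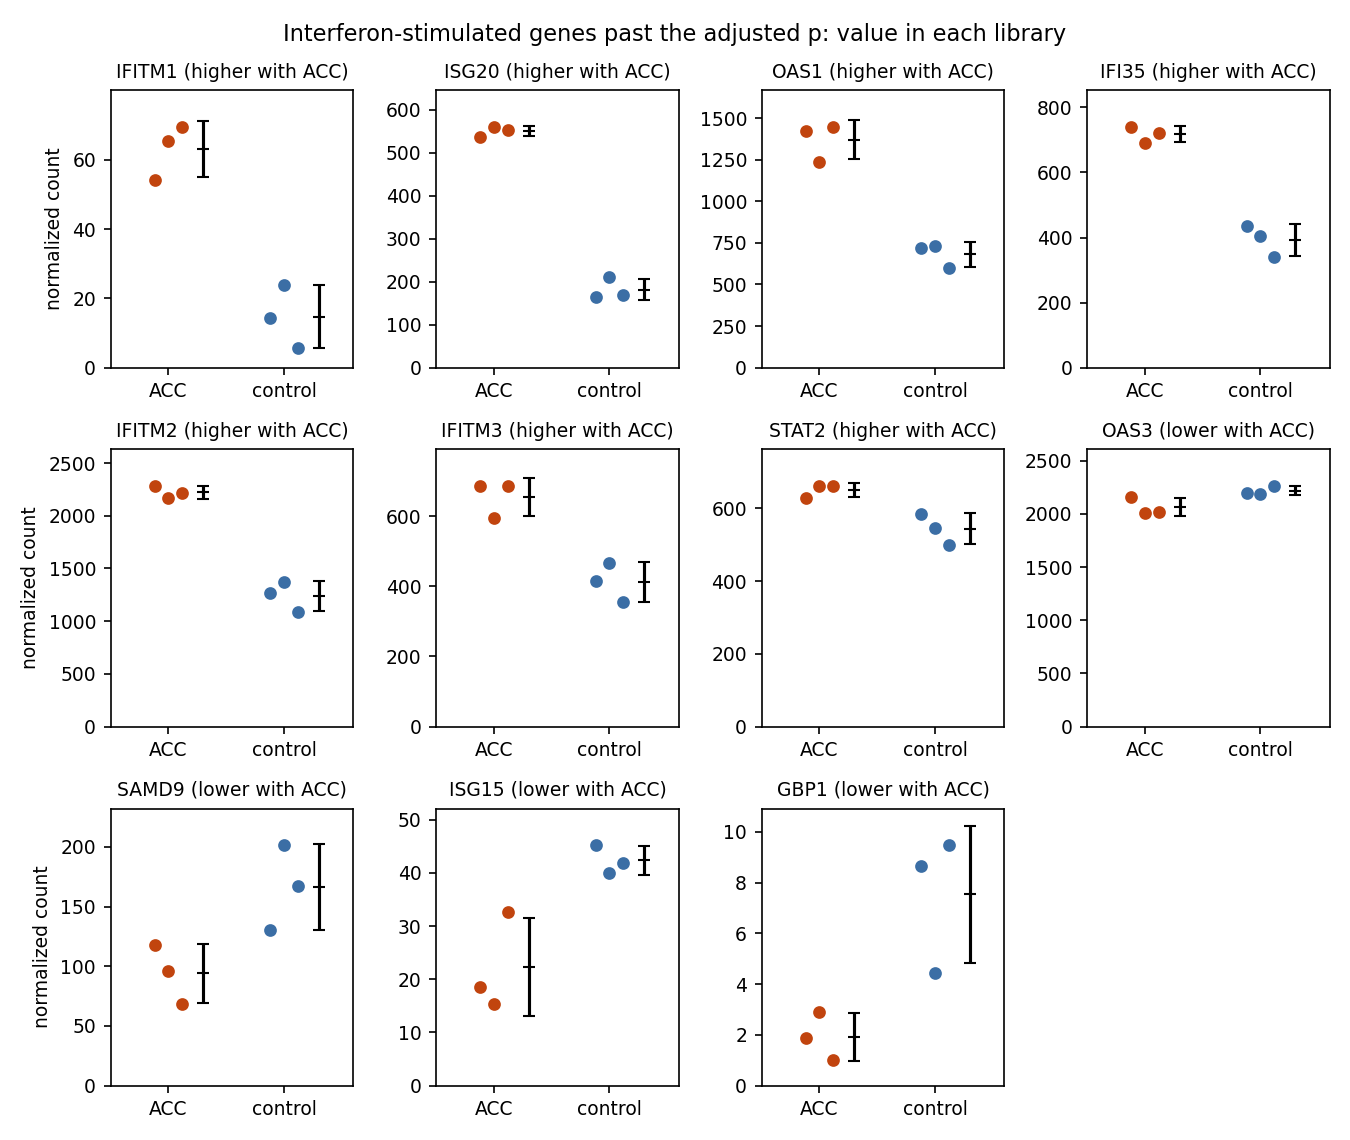
Normalized count (y axis, from 0) in each ACC library (red, left) and each control library (blue, right) for the 11 interferon-stimulated genes at an adjusted p of 0.05 or less, with mean and SD (n = 3 each) in black. The groups do not overlap in any panel, and the separation is widest for ISG20 and narrowest for OAS3 as a ratio of the nearest libraries.

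ISG15, the ubiquitin-like protein that is joined to viral and host proteins, was lower with ACC. It had 18.6, 15.4 and 32.7 normalized counts with ACC, against 45.3, 40.0 and 41.8 in control. ACC replicate 3 stood apart from the other ACC libraries but remained below the controls (log2 fold change -0.97 ± 0.25 SE, limma adjusted p = 0.00407). Its log2 fold change passed the 2-fold mark without ACC replicate 3 (-1.27) or control replicate 2 (-1.01). USP18, the protease that removes ISG15 and restrains the type I receptor, had 140, 139 and 126 with ACC, against 163, 154 and 162 in control. The groups of USP18 did not overlap, but it missed the threshold (log2 fold change -0.24, 95% interval -0.45 to -0.04, limma adjusted p = 0.0530). USP18 passed as lower with the filter of 30 reads (0.0442), a pseudocount of 0.5 (0.0499) or scaling to the total of all genes (0.0473). HERC6, a ligase that attaches ISG15 in the mouse, had 185 ± 13.1 with ACC against 197.6 ± 27.6 in control (mean ± SD, n = 3 each) and did not pass.

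The ADP-ribosylation genes PARP9, DTX3L and PARP14 lie together on chromosome 3 of GRCh38 between 122527924 and 122730840, and none passed with limma, while DTX3L had an unadjusted p under 0.05. PARP9 and DTX3L encode partners in a complex that acts on histones, and their exons overlap on opposite strands, with the strand of counting unknown. DTX3L had 666, 656 and 670 normalized counts with ACC, against 644, 591 and 569 in control. Its groups did not overlap, and it lay at the threshold (log2 fold change 0.14, 95% interval 0.02 to 0.27, limma adjusted p = 0.0514), passing in 6 of 16 alternatives, edgeR among them (0.0433). PARP9 had 458, 395 and 434 with ACC, against 472, 431 and 465 in control, on the other side of 0 (log2 fold change -0.09). PARP14, a regulator of STAT6, had 1043, 982 and 961 with ACC, against 973, 1004 and 918 in control, and its groups overlapped (95% interval of the log2 fold change -0.06 to 0.15).

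The remaining effectors held both the strongest rise by adjusted p and a clear fall. ISG20, an exonuclease that degrades single-stranded RNA, lies on chromosome 15 of GRCh38 from 88635670 to 88656483. It had 537, 561 and 553 normalized counts with ACC, against 165, 209.8 and 169 in control. The ACC libraries were close to each other and at least 2 times any control library (log2 fold change 1.61 ± 0.09 SE, limma adjusted p = 3.56e-11). IFI35, a leucine zipper protein that binds NMI, had 741, 691 and 721 with ACC, against 435, 404 and 340 in control (log2 fold change 0.87 ± 0.08 SE, limma adjusted p = 2.82e-08). SAMD9, a cytoplasmic antiviral protein that also limits growth, had 117, 96.3 and 68.5 with ACC, against 130, 202 and 167 in control. The groups of SAMD9 did not overlap, though both were spread (log2 fold change -0.83 ± 0.17 SE, limma adjusted p = 0.000711), and its change passed the 2-fold mark without ACC replicate 1. IFI6, a mitochondrial and endoplasmic reticulum protein that protects from cell death, had 93.2, 59.7 and 64.5 with ACC, against 102, 84.5 and 76.9 in control (limma adjusted p = 0.180). Without ACC replicate 1 it passed as lower (log2 fold change -0.49, limma adjusted p = 0.0265). IFI16, a sensor of nuclear DNA, and IFI27, a mitochondrial protein, had at most 24 and 16 reads in any library and did not pass.

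Several of the genes most used as reporters of an interferon response were at the limit of detection in both groups. CXCL10, a chemokine that draws T cells and is induced by interferon gamma, had 0 reads in all 6 libraries, where a count of 0 allows up to 3 reads in a library. IFI44L had 0 reads in the ACC libraries and 1 in each control library, and IFI44 had 0 reads with ACC and 6 over the controls. Neither reached the sum needed for testing. No control library held more than 3 reads of either gene, which is what a count of 0 allows, so neither difference was detectable at this depth.

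Levels were set side by side per length. Mean normalized counts per kilobase of merged exons were 1384 with ACC and 774 in control for IFITM2, the highest, then 366 and 201 for IFI35, and 257 and 267 for EIF2AK2. Of the 38 genes, 6 had at least 100 per kilobase on average over both groups, and 15 were under 10, among them MX1 at 1.40 with ACC and 1.33 in control. Merged exons join every annotated exon of a gene, 1958 bases for IFI35 and 13021 for OAS1. OAS1, with more counts than IFI35, had 105 per kilobase with ACC and 52.4 in control. The order and these counts of genes therefore depend on the breadth of annotation as well as on the level. Summed over all members, the normalized counts were 15519, 14520.4 and 15209 with ACC, against 12805, 12851 and 12149 in control. IFITM2 and OAS1 carried most of that gap.

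**Figure D3:**
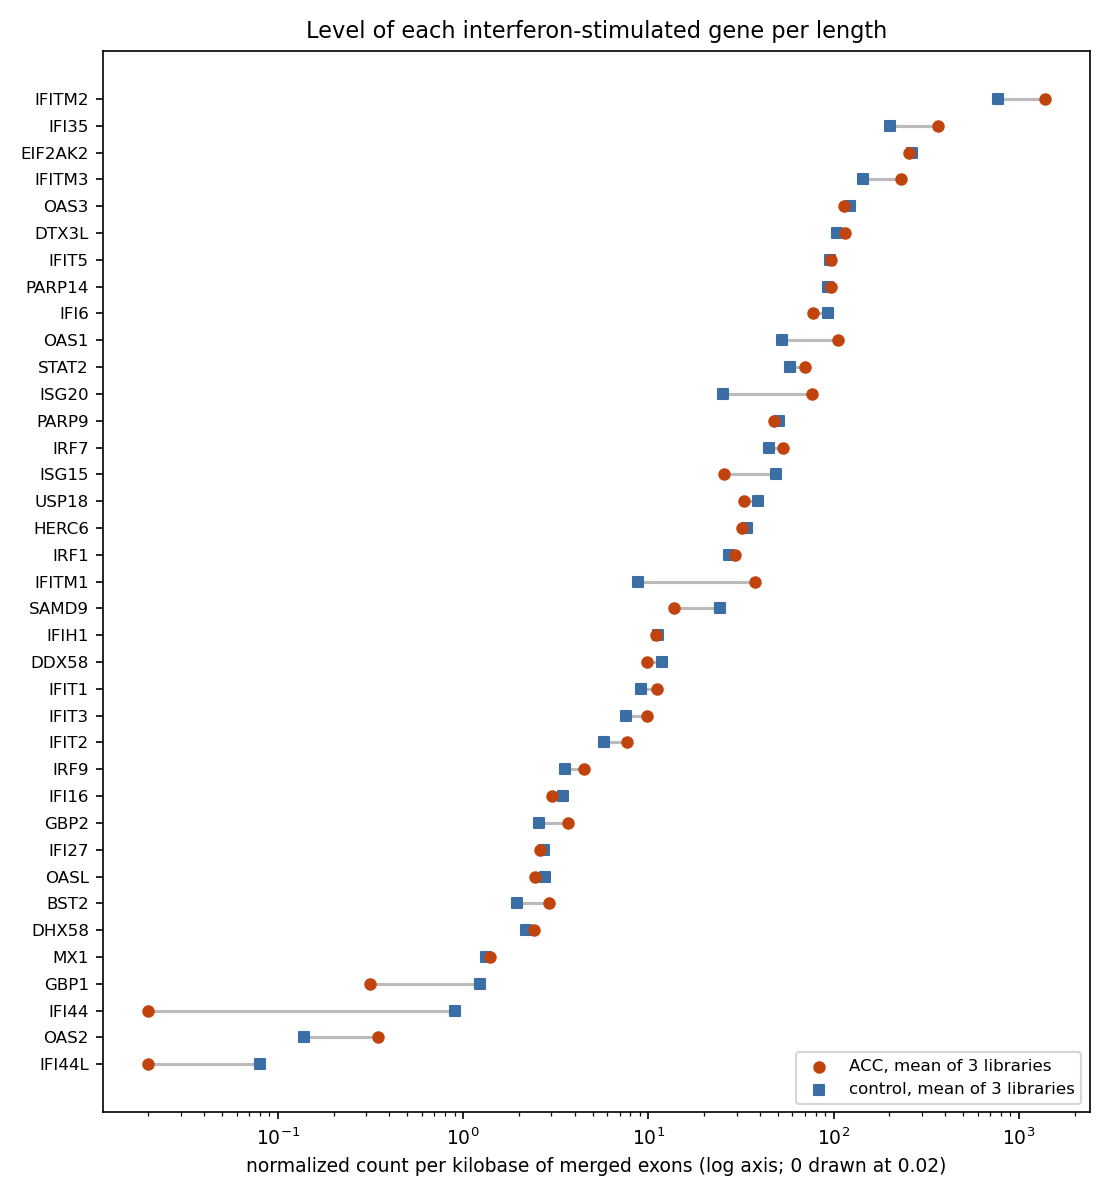
Mean normalized count per kilobase of merged exons (x axis, log scale) for the 37 interferon-stimulated genes with a read, ordered by level, with ACC in red and control in blue. IFITM2 is at the top with 1384 with ACC and 774 in control, and IFI44L and IFI44, with 0 reads with ACC, have their red points at the left edge.

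The libraries of a group were not equal across these genes. Control replicate 3 was the lowest of the controls for 6 of the 7 ISGs that were higher with ACC, and control replicate 2 the highest for 5 of them. Among all 3775 genes with at least 30 reads that were higher, control replicate 3 was the lowest control for 53.8% and control replicate 2 the highest for 39.7%. Without control replicate 3 the same 7 genes still passed, with log2 fold changes from 0.20 for STAT2 to 1.70 for IFITM1.

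Genes around the pathway moved both ways, and their counts stand beside the 21.3% of all genes that were higher and the 21.9% that were lower. Of 21 interferon ligand genes listed, only IFNE, an epithelial type I interferon, was in the table. It had 13.0, 31.8 and 26.6 normalized counts with ACC, against 28.9, 27.6 and 23.7 in control (limma adjusted p = 0.530). The other ligand genes had no row under the names listed, so no value can be given for them. Of 9 receptor and kinase genes, 4 were higher and 1 lower. JAK1, the kinase shared by every interferon receptor, had 5414, 5252 and 5222 with ACC, against 8108, 7911 and 8785 in control. All ACC libraries were below all controls (log2 fold change -0.64 ± 0.04 SE, limma adjusted p = 2.67e-10). The receptor chains IFNGR2 and IFNAR1 rose, with log2 fold changes of 0.41 and 0.22, as did the kinase JAK2 with 0.52, and the adjusted p was at most 0.000813 from limma. The kinase TYK2 had a log2 fold change of 0.06 and the receptor chain IFNGR1 -0.08, and neither passed.
Of 5 other STAT and IRF factors, 2 were lower and the other 3 did not pass. STAT3, which answers to cytokines of the IL-6 family, had 4657, 4775 and 4758 normalized counts with ACC, against 5357, 5378 and 5609 in control (log2 fold change -0.20 ± 0.03 SE, limma adjusted p = 0.000103). IRF8, a factor of myeloid cells, had 2.80, 3.85 and 2.05 with ACC, against 19.3, 13.3 and 24.7 in control (log2 fold change -2.35 ± 0.38 SE, limma adjusted p = 4.99e-05). For both of them every ACC library was below every control library. IRF3 and IRF2 had log2 fold changes of 0.03 and 0.10 and did not pass.

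**Figure D4:**
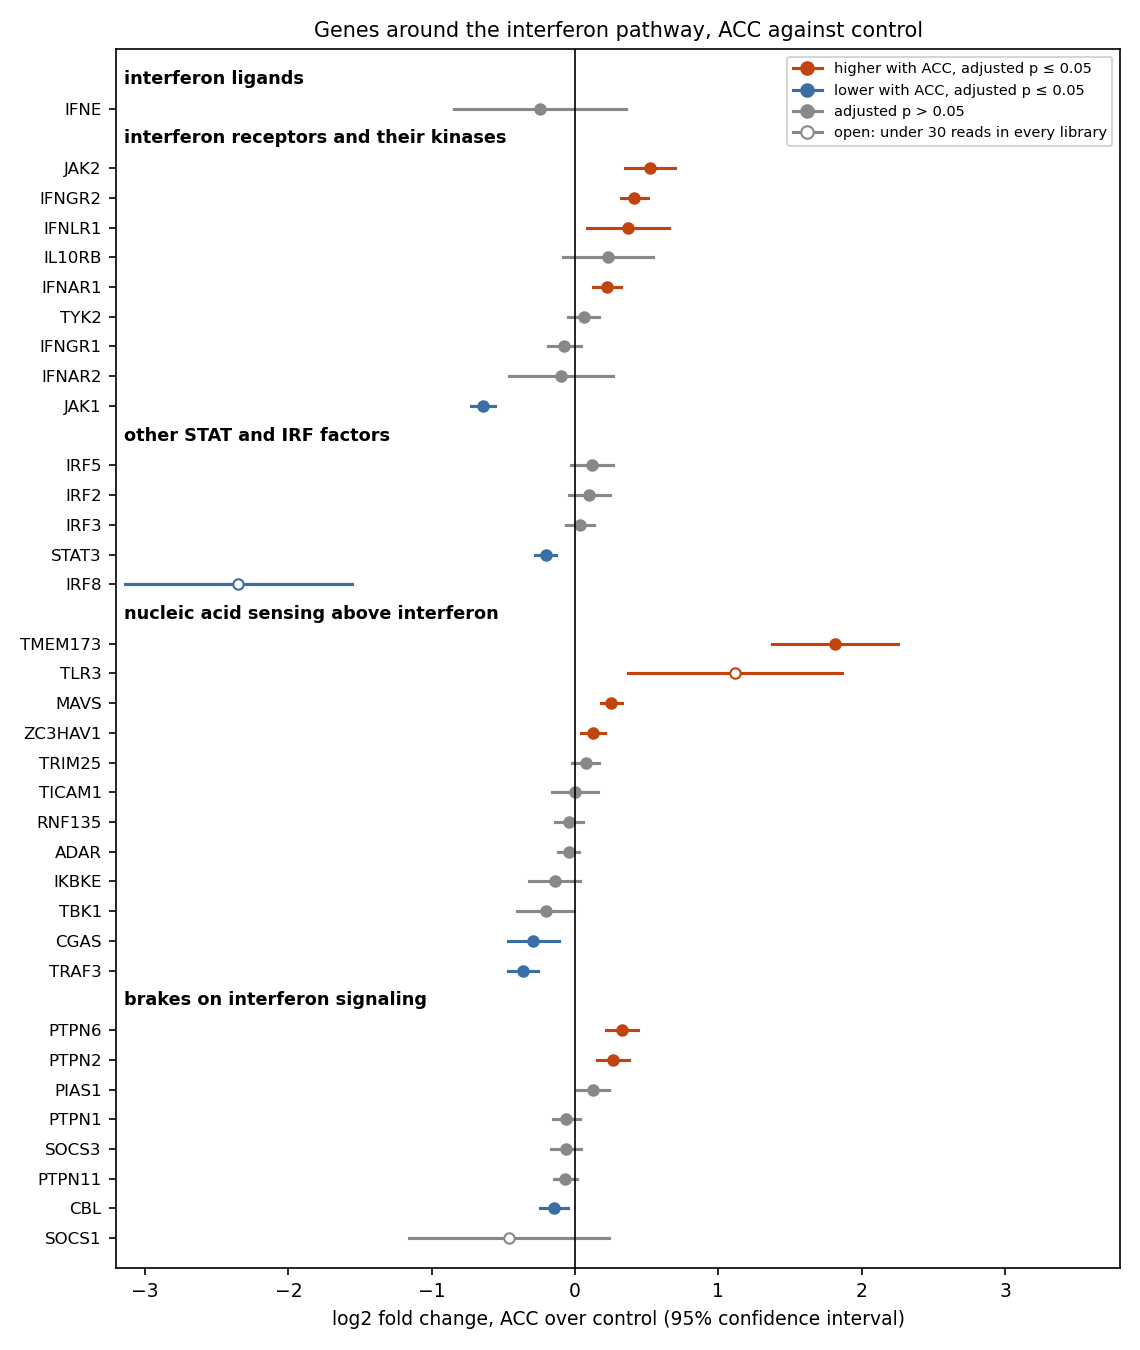
Log2 fold change (ACC over control, x axis) with its 95% confidence interval for the tested ligand, receptor, factor, sensing and brake genes (the other interferon-induced genes are not drawn), grouped by place in the pathway, with colours and open points as in the plot of the members. JAK1 at -0.64 and IRF8 at -2.35 lie left of 0, and TMEM173 at 1.81 lies farthest right of the genes drawn.

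Of 12 genes that sense nucleic acids or relay that signal toward interferon, 4 were higher and 2 lower. TMEM173, the DNA-signal adaptor STING, had 72.7, 72.2 and 74.7 normalized counts with ACC, against 27.0, 15.1 and 19.9 in control (log2 fold change 1.81 ± 0.21 SE, limma adjusted p = 1.08e-06). CGAS, the enzyme that makes the messenger for STING, fell by 0.29 on the log2 scale (limma adjusted p = 0.00859). MAVS, the adaptor of RIG-I and MDA5, rose with a log2 fold change of 0.25 and TRAF3, an adaptor below it, fell by 0.37 on the log2 scale. ADAR and TRIM25 had log2 fold changes of -0.04 and 0.08 and did not pass. Of 8 brakes on the signal, 2 were higher and 1 lower. The phosphatases PTPN6 and PTPN2 had log2 fold changes of 0.33 and 0.27 and the ligase CBL -0.15, while the abundant phosphatases PTPN11 and PTPN1 did not pass (log2 fold changes -0.07 and -0.06).
Of 46 other interferon-induced genes listed, 38 were tested, of which 8 were higher and 8 lower, shares near those of all genes (21.3% and 21.9%), with a median log2 fold change of -0.11. LGALS3BP, a secreted glycoprotein, had 3897, 4093 and 4166 normalized counts with ACC, against 2606, 2649 and 2279 in control (log2 fold change 0.69). TRIM14, an adaptor at MAVS, had a log2 fold change of 0.64, and TNFSF10, the death ligand TRAIL, 2.19 from 80 reads over the ACC libraries and 16 over the controls. DDX60L, a helicase-like protein, had -0.52. The adjusted p of these 4 genes was at most 1.48e-05 from limma. RNF213 and PSME1, the most abundant that did not pass, had log2 fold changes of 0.06 and 0.04.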

How the data were processed

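Poly-A RNA of 3 ACC and 3 control cultures of A549 was sequenced. Reads were trimmed (Cutadapt), aligned to GRCh38 (STAR 2.4.2a), assigned to genes (HTSeq) and scaled (DESeq2) by the authors. Each deposited signal value is a gene count over the size factor of its library, to 2 decimals. The strand setting of the counting was not given in the sources. Exons of further members, among them GBP2, MX1, IFIT2 and IFIT3, also overlap those of other annotated genes. Some of their reads may likewise have been left out or given to another gene. In each library 100% of the positive values lay within 0.1 read of a whole multiple of 1 step, which gave back the reads per gene. Deposited columns with the log2 fold change, p-value and adjusted p-value of the authors' own comparison, and their thresholds, were not used.

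limma 3.58.1 (R 4.3.3) with a mean-variance trend compared log2(normalized count + 1) between the groups over 19318 genes whose normalized counts summed to 10 or more, two-sided, with Benjamini-Hochberg adjustment. The fold changes keep this scale, where the added 1 pulls those of low genes toward 0, but they were not always the smaller ones. GBP1 was at -1.54, beside -1.95 with DESeq2 and -1.88 with edgeR. IFITM1 was at 2.21, beside 2.09 with DESeq2 and 2.07 with edgeR. edgeR 4.0.16 called on the recovered reads 8361 genes at an adjusted p of 0.05 or less and DESeq2 1.42.0 called 6877, against 8358 with limma. Libraries of a group differed beyond sampling noise (mean chi-square per gene 2.60 to 5.24), so each was counted. Coordinates and merged exon lengths are from a GENCODE annotation of GRCh38 newer than the one the authors counted on, so levels per kilobase rest on exons that may differ from those counted, and promoter sequences from RefSeq (GRCh38.p14). The limit for a count of 0 covers counting error only.

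The members and gene lists were chosen with earlier results of these data known. All members are named. Values in every library are given for members at the adjusted p with at least 30 reads in 1 library, for EIF2AK2, PARP14, DTX3L and PARP9 as the most abundant that missed it, and for GBP1, which passed with fewer reads. Those of other members (among them MX1, the IFIT genes, DDX58, IRF7 and USP18) were added after their values were seen. From each pathway list up to 4 genes with the smallest adjusted p and up to 2 abundant genes that missed it are named. One gene of these lists is not reported here. The alternatives were other pseudocounts, filters, scalings and tests, a replicate block and leaving out each library.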

Additional observations from a re-analysis of the deposited data

How the results depend on the processing

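Over 16 alternatives the 7 higher ISGs passed the adjusted p in every one, and ISG15 and SAMD9 did so among the lower genes. Of 553 values of single members, 510 kept their direction and side of the threshold, 16 lost it, 13 gained it and 14 changed sign. The count of lower ISGs, 4, was 2 with DESeq2 and from 2 to 5 when 1 library was left out. The lower ISGs past the fold and read thresholds, 0, numbered from 0 to 1 when 1 library was left out. The median log2 fold change of 0.10 was 0.0535 with no filter on low values and from 0.0693 to 0.143 when 1 library was left out. Sign changes came only from leaving out 1 library in members that never passed the adjusted p. With 1 library left out, the log2 fold change ranged from -0.18 to 0.69 for BST2, from -0.23 to 0.29 for DHX58 and from -0.16 to 0.024 for HERC6. It ranged from -0.31 to 0.19 for IFI27, from -0.22 to 0.16 for IFIH1, from -0.12 to 0.21 for MX1 and from -0.30 to 0.13 for OASL. The cause was not tested.

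Same-numbered libraries deviated together with correlations of -0.14, 0.04 and -0.03, and differently numbered ones with -0.08 to 0.11. No pairing by number was seen, but paired cultures with little shared variation would give the same, so pairing stays unknown. With the replicate block 7 ISGs were higher and 3 lower, OAS3 being lost (adjusted p = 0.0603), and 8152 genes passed in all. No scaling moved the median of all genes by more than 0.01 on the log2 scale. Depth limits the 10 members under 30 reads in every library.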
